A study of Homo sapiens with 6 samples.

Results

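Counts were described for 40 mRNAs of the mitotic cell cycle, out of 26364 gene symbols in the deposited table, and all 40 symbols were found. The members were taken by gene symbol from a list proposed with earlier results of the same comparison known, and the list was in part chosen by the fold changes in it, with CKS2 as a short mRNA that fell strongly and CENPF as a long one. The values of the members in that comparison are therefore a description and support no claim about the list. A member is called higher or lower where it passed a Benjamini-Hochberg adjusted p of 0.05 in the quasi-likelihood F-test of edgeR over all tested genes.

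These genes drive a cell through mitosis. CDK1 bound to a cyclin A or B starts it, aided by the small CKS proteins that dock the complex on phosphorylated targets and by the CDC25 phosphatases that activate it. Polo and Aurora kinases build the spindle, the BUB and MAD2 checkpoint proteins hold back CDC20 and the anaphase-promoting complex until every kinetochore is attached, and condensin compacts the chromosomes. Their mRNAs peak in G2 and M phase and differ widely in length.

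The RNA came from HEK293T, a transformed human embryonic kidney cell line, and all cells had received okadaic acid (200 nM, 3 h). This toxin blocks the phosphatases PP2A and PP1, which oppose mitotic kinases. PP2A also removes phosphate from UPF1, the helicase of nonsense-mediated mRNA decay (NMD). No library came from untreated cells, so an effect of the drug on these mRNAs cannot be seen here. The groups were RNA recovered by immunoprecipitation (IP) of the phosphorylated form of UPF1 (p-UPF1 IP, replicates 3, 6 and 9) and a control titled pre-IP (replicates 1, 4 and 7). The control also carries a rabbit IgG antibody label, so the labels leave it unclear whether it is input RNA or a mock IP. The comparison asks which RNAs and decay fragments are found with p-UPF1. Nothing says that the replicates were separate cultures, so all errors and adjusted p describe library-to-library spread that could be technical. Both groups came from cells given the same treatment. A fold change here compares recovered RNA and measures neither the number of cells in mitosis nor the RNA per cell.

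Libraries held 905926 to 2057647 counts in p-UPF1 IP and 600244 to 1179369 in pre-IP. Small structured RNA genes took 24.1% to 43.1% of the counts in p-UPF1 IP and 63.2% to 75.2% in pre-IP. The microRNA symbol MIR7641-2 alone held 8.40% of the counts of pre-IP replicate 4. VIM, NEFL and NEFM, genes reported in HEK293 cells, had counts in every library, while PAX2 had 9 counts in all. Of 17 marker genes of liver, blood, fibroblasts, muscle and epidermis, 11 had no count in any library, and the list summed to 11 to 19 counts per library in p-UPF1 IP and 3 to 14 in pre-IP.

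The 40 mRNAs together held 0.542%, 0.326% and 0.543% of all counts in p-UPF1 IP replicates 3, 6 and 9, against 0.200%, 0.0826% and 0.130% in pre-IP replicates 1, 4 and 7. Every p-UPF1 IP library was above every pre-IP library. All protein-coding genes moved the same way, with 64.6% ± 9.54 of counts in p-UPF1 IP and 31.3% ± 6.31 in pre-IP (SD, n = 3). Within protein-coding counts the members held 0.723% ± 0.141 in p-UPF1 IP and 0.427% ± 0.114 in pre-IP. The number of members with fewer than 10 counts was 0, 1 and 0 in p-UPF1 IP replicates 3, 6 and 9, against 5, 20 and 10 in pre-IP replicates 1, 4 and 7, so the control sets the precision. All further levels are CPM, counts scaled to a common library size with TMM factors, which sets the bulk of the genes equal between libraries.

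On that scale the members as a group did not stand apart from other genes. Of the 40, CDC25C was too thinly counted to test. Of the 39 tested, 8 were called in either direction, beside 19.7% of all tested genes. Of them, 4 were called higher in p-UPF1 IP (TOP2A, SMC4, NCAPD2 and MKI67), beside 8.81% of all 8070 tested genes and 9.1% of the protein-coding ones, and 4 were called lower (CKS2, UBE2C, CKS1B and CCNA2), beside 10.9% and 8.04%. Each count is 10.3% of the tested members, near the background. The calls of TOP2A, CKS1B, SMC4 and CCNA2 lay close to the threshold, with adjusted p from edgeR between 0.0447 (TOP2A) and 0.0486 (CCNA2). The median log2 fold change was 0.08 over members, 0.10 over all tested genes and 0.15 over tested protein-coding genes. The groups did not overlap for 6 members with p-UPF1 IP above (21.9% of all tested genes) and for 7 with p-UPF1 IP below (17.7%), and they overlapped for 26. With library totals in place of TMM the median log2 fold change of all tested genes was 1.63, so every fold change given here is relative to that shift. On library totals 27 members were called higher, where 60.4% of all genes were, and CKS2 was called lower, where 1.93% were.

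**Figure D1:**
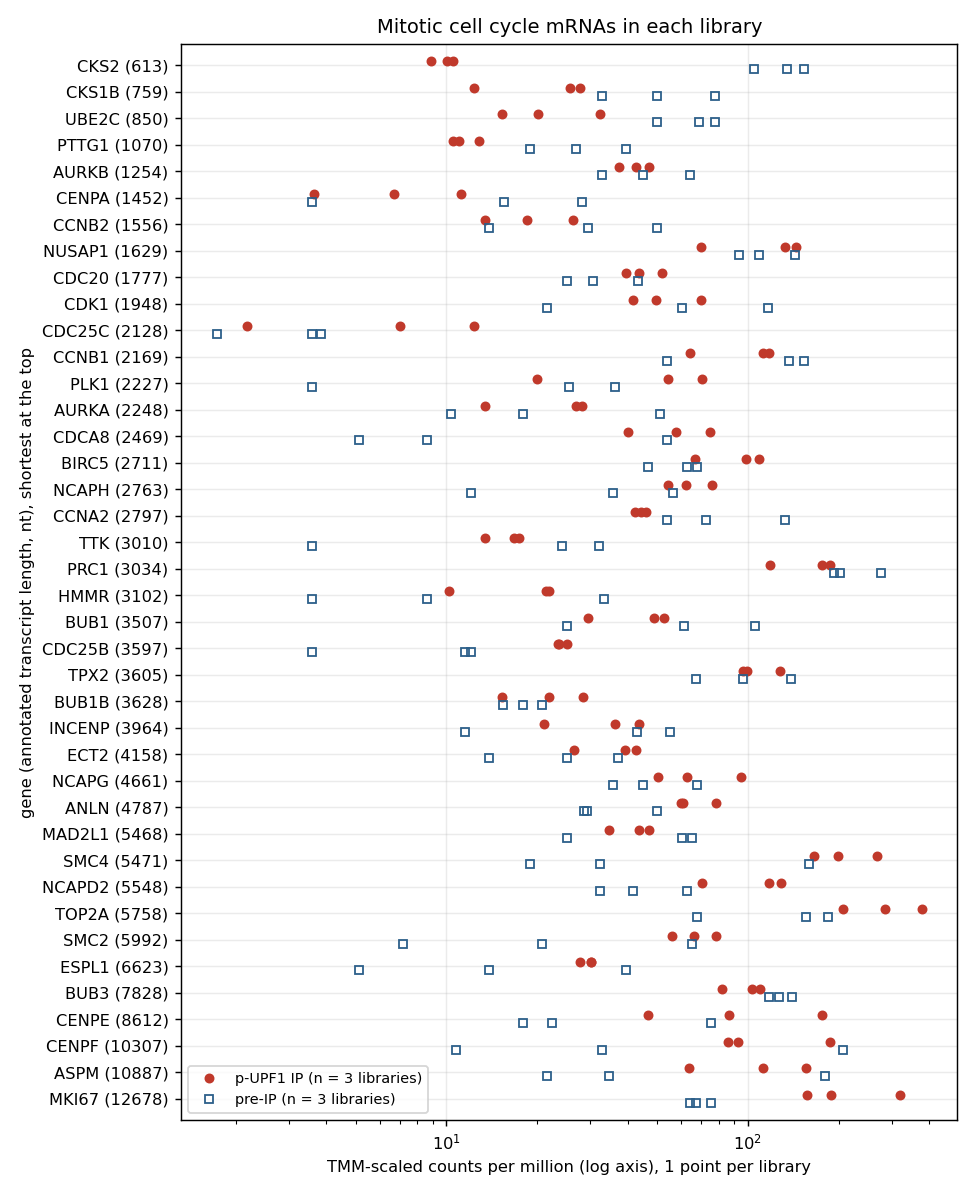
TMM-scaled CPM of each of the 40 mRNAs (rows, ordered by annotated transcript length, shortest at the top) on a log axis, with 1 point per library for p-UPF1 IP (filled circles) and pre-IP (open squares). CKS2 shows the widest gap between groups, and the pre-IP points spread more than the p-UPF1 IP points for most members.

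Among the members the fold change varied with the length of the mRNA, although the list was proposed with a short mRNA that fell and a long one in view. Annotated transcripts ran from 613 nt for CKS2 to 12678 nt for MKI67. The 20 tested members of up to 3102 nt had a median log2 fold change of -0.35, with 0 called higher and 4 lower. The 19 longer members had a median of 0.48, with 4 called higher and 0 lower, and none of them was below -0.61 (BUB1). The difference of 0.83 between long and short members stands beside 0.65 for all protein-coding genes divided at the same length (4348 long and 3333 short). Across the 39 members the log2 fold change and the log2 transcript length had a Spearman correlation of 0.61 and a Pearson correlation of 0.69. Across 7681 protein-coding genes the values were 0.35 and 0.35. These are correlations across genes measured in the same 6 libraries, and genes are not replicates.

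Up to 4 kb the member medians lay near those of protein-coding genes in the same range of length. Up to 1 kb, the 3 members CKS2, CKS1B and UBE2C had a median log2 fold change of -1.58, beside -1.24 for 370 protein-coding genes, of which 44.6% were called lower. From 1 to 2 kb the medians were -0.40 for 7 members and -0.38 for 1233 genes. From 2 to 4 kb they were 0.05 for 15 members and 0.12 for 2870 genes. From 4 to 6 kb the medians were 0.89 for 8 members and 0.34 for 1718 genes, and over 6 kb they were 0.63 for 6 members and 0.61 for 1490 genes, of which 19.6% were called higher. The protein-coding median thus rose at each step, while the member median was highest at 4 to 6 kb. Among the members, coding length (Spearman 0.63) and exon number (0.62) tracked the fold change about as closely as transcript length. The length of the 3' UTR tracked it less closely (0.34), and GC content had a correlation of 0.04, beside 0.19 over all protein-coding genes. Over all protein-coding genes the Spearman correlation was 0.46 for coding length, 0.36 for exon number and 0.35 for transcript length.

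**Figure D2:**
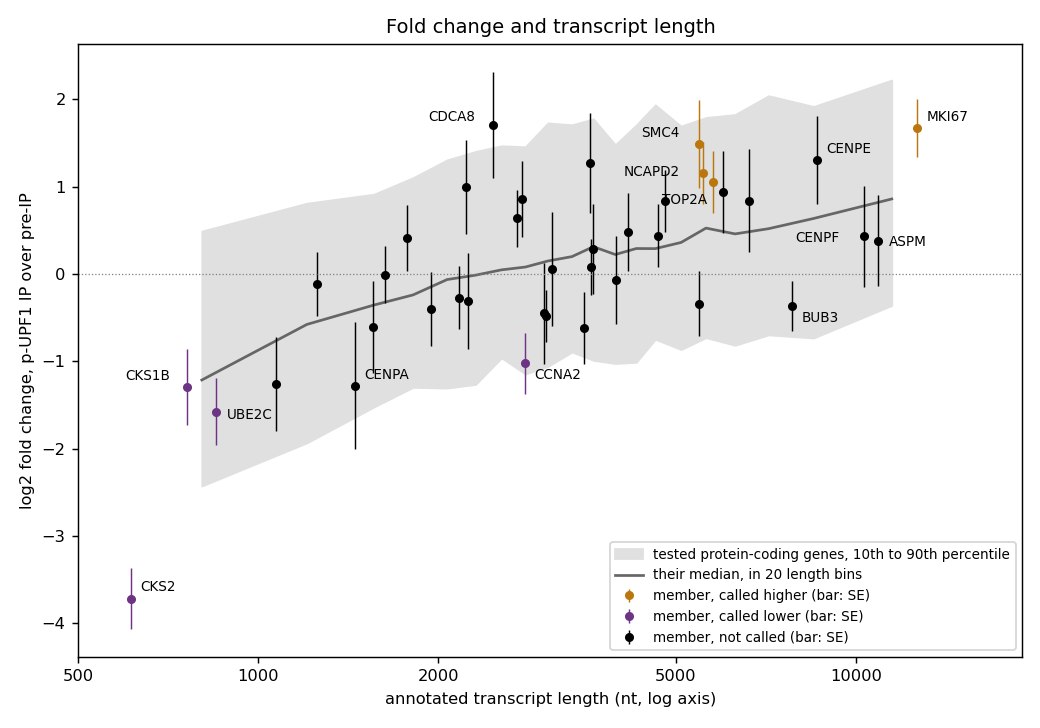
Log2 fold change of p-UPF1 IP over pre-IP (y) against annotated transcript length on a log axis (x) for the 39 tested mRNAs, with standard errors as bars. The band and line give the 10th to 90th percentile and the median of tested protein-coding genes in 20 length bins. Most members lie inside the band, and CKS2 lies far below it.

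Summed inside each library, where no scaling between libraries enters, the same member counts moved in the same direction. This is not separate support, since the list was proposed with a short faller and a long mRNA in view. The 20 shorter of the 40 mRNAs (up to 3034 nt) held 30.02% of the member counts in p-UPF1 IP replicate 3 (95% Clopper-Pearson interval 29.2% to 30.9%), 37.6% in replicate 6 and 37.6% in replicate 9. In pre-IP they held 45.8% in replicate 1 (43.8% to 47.8%), 58.5% in replicate 4 and 55.6% in replicate 7. The groups did not overlap, and pre-IP replicate 1 was the pre-IP library nearest to the p-UPF1 IP libraries. The means were 35.1% ± 4.37 in p-UPF1 IP and 53.3% ± 6.66 in pre-IP (SD, n = 3). CKS2 alone, the faller named with the list, held 0.370% ± 0.112 of member counts in p-UPF1 IP and 6.16% ± 2.60 in pre-IP. The same share was not taken for all protein-coding genes. Intervals cover counting error only, since PCR reads without molecular identifiers are not independent molecules.

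**Figure D3:**
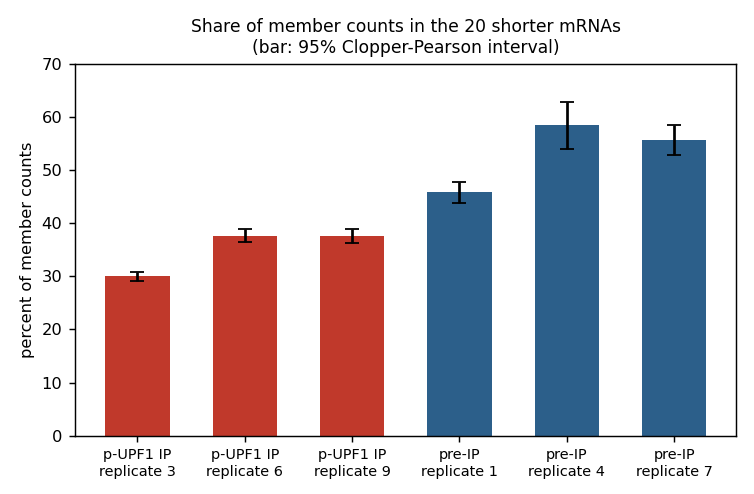
Percent of the counts of all 40 mRNAs that fell on the 20 shorter ones (y, from 0) in each library (x), with 95% Clopper-Pearson intervals as bars. All 3 p-UPF1 IP libraries lie between 30.02% and 37.6%, below the 3 pre-IP libraries at 45.8% to 58.5%.

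With the length trend of protein-coding genes removed and the model fitted again, 0 members were called higher, beside 6.26% of 7681 genes, and 1 was called lower, CKS2, beside 4.84%. The member median was then 0.05, beside 0.16 for all genes with a known length in that fit. Of the members 22 were above 0 and 17 below, but 0 is not the centre of those genes. The log2 fold change of CKS2 was -2.19 in that fit. That of UBE2C was -0.40, of CKS1B 0.012, of CCNA2 -0.98 and of MKI67 1.002. SMC4 had 1.26, NCAPD2 0.92 and TOP2A 0.79, against 1.49, 1.16 and 1.05 with the trend kept, so the upward calls were lost while much of each fold change remained.

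Among the cyclin-dependent kinase CDK1 and its partners, 3 of 7 tested were called lower and 0 higher, with a median log2 fold change of -0.61. Over all tested genes 10.9% were called lower. Over protein-coding genes of up to 1 kb, where CKS2 and CKS1B lie, 44.6% were, and over those of 2 to 4 kb, where CCNA2 lies, 6.66% were. CKS2 and CKS1B encode the paired small subunits of mitotic CDK complexes. Their coding sequences are shown because these closely related short mRNAs differed most in how far they fell. The capitals mark bases that differ between the aligned sequences, which are from GENCODE 29 on GRCh38, with CKS1B on chromosome 1 (plus strand, gene at 154974653 to 154979249) and CKS2 on chromosome 9 (plus strand, gene at 89311198 to 89316703), both spliced from 3 exons and written from start to stop codon.
CKS2: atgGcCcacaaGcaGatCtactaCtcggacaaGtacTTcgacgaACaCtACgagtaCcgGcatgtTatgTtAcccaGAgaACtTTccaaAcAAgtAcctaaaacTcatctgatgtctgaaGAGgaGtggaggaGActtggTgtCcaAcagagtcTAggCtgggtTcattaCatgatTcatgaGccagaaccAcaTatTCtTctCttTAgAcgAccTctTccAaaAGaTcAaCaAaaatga
CKS1B: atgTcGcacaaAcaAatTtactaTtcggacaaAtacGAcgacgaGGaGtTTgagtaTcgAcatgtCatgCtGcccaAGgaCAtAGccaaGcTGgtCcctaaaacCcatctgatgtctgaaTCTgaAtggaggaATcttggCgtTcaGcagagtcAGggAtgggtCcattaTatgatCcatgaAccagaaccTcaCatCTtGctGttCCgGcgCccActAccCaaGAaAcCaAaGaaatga
Of 240 aligned coding bases 175 are identical (72.9%), and the longest run of identical bases is 15 nt. CKS1B has 6 annotated pseudogenes by name, whose reads may not be told apart from it, and CKS2 has 0.

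CKS2 had 8.86, 10.6 and 10.1 CPM in p-UPF1 IP replicates 3, 6 and 9, against 105, 154 and 135 CPM in pre-IP replicates 1, 4 and 7. The groups were far apart and each was tight, with means of 9.83 ± 0.875 and 131 ± 24.7 CPM (SD, n = 3). The log2 fold change was -3.72 (SE 0.35), or 13.2-fold lower. Of 8070 tested genes 48 had a lower log2 fold change, and of the 370 protein-coding genes of up to 1 kb, 3 did. Leaving out each library in turn kept it called, with log2 fold changes from -3.86 to -3.56. CKS2 was named with the list as a strong faller in this comparison. Its rank, its call and these fits are therefore a description and support no claim. Per kilobase of transcript CKS2 had 16.03 CPM in p-UPF1 IP, where it ranked 18 of the 40, and 214 CPM in pre-IP, where it ranked first, ahead of UBE2C at 77.2 CPM per kilobase. The microRNA gene MIR3153 lies inside CKS2 and had 7 counts in all.

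CKS1B had 25.7, 27.7 and 12.3 CPM in p-UPF1 IP, against 78.0, 50.1 and 32.8 CPM in pre-IP. The groups did not overlap, but the highest p-UPF1 IP value lay close to the lowest pre-IP value, and the log2 fold change was -1.30 (SE 0.44). The ratio of CKS2 counts to CKS1B counts, taken inside each library, was 0.345, 0.382 and 0.818 in p-UPF1 IP, against 1.34, 3.07 and 4.11 in pre-IP. CKS2 was the less counted of the pair in every p-UPF1 IP library and the more counted in every pre-IP library.

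CCNA2, cyclin A2, had 42.1, 44.0 and 45.9 CPM in p-UPF1 IP, against 133, 53.7 and 72.6 CPM in pre-IP, a log2 fold change of -1.02 (SE 0.35). The p-UPF1 IP libraries were nearly equal and lay below all pre-IP libraries. An exon of CCNA2 overlaps the antisense gene EXOSC9, and the strand setting of the counting is not given in the sources used here. CDK1, the kinase itself, had 41.5, 49.5 and 69.9 CPM in p-UPF1 IP, against 116, 21.5 and 60.5 CPM in pre-IP, and its groups overlapped. Its log2 fold change was -0.40 (SE 0.42), which did not pass the threshold and was 0.28 without pre-IP replicate 1.

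CCNB1, cyclin B1, had 118, 64.4 and 112 CPM in p-UPF1 IP, against 137, 53.7 and 154 CPM in pre-IP (log2 fold change -0.27, SE 0.36). CCNB2, cyclin B2, had 13.4, 18.6 and 26.3 CPM in p-UPF1 IP, against 29.4, 50.1 and 13.8 CPM in pre-IP (-0.61, SE 0.53). Neither cyclin B passed the threshold, and the groups overlapped for both. CDC25B, a phosphatase that activates CDK1, had 23.5, 23.7 and 25.2 CPM in p-UPF1 IP, against 11.5, 3.58 and 12.1 CPM in pre-IP. Its groups did not overlap, but its log2 fold change of 1.27 (SE 0.57) did not pass the threshold. CDC25C, its relative, had 23, 6 and 22 counts in p-UPF1 IP and 3, 1 and 1 counts in pre-IP, and was not tested.

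Condensin and chromosome structure genes held all 4 calls upward. Of 7 tested, 4 were called higher and 0 lower, with a median log2 fold change of 1.05 and a median transcript of 5548 nt, the second longest of the 9 role groups. Over all tested genes 8.81% were called higher, and over protein-coding genes of 4 to 6 kb 11.2% were. All 4 calls were lost with the length trend removed. MKI67, the Ki-67 protein that coats mitotic chromosomes, had 320.7, 157 and 188 CPM in p-UPF1 IP, against 75.5, 64.5 and 67.4 CPM in pre-IP. The pre-IP libraries were nearly equal and all p-UPF1 IP libraries lay well above them. Its log2 fold change was 1.67 (SE 0.33), and among 1490 protein-coding genes over 6 kb, 225 had a higher one.

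TOP2A, the topoisomerase that untangles sister chromatids and the member with the most counts, had 378, 207 and 285 CPM in p-UPF1 IP, against 184, 68.0 and 156 CPM in pre-IP (log2 fold change 1.05, SE 0.35). NCAPD2, a subunit of condensin I, had 129, 70.6 and 117 CPM in p-UPF1 IP, against 62.7, 32.2 and 41.5 CPM in pre-IP (1.16, SE 0.35). The groups did not overlap for either gene. The small RNA gene SCARNA10 lies inside NCAPD2 and had 191 to 1159 counts per library in p-UPF1 IP and 667 to 1345 in pre-IP. Whether any of its reads were assigned to NCAPD2 was not tested.

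SMC4, the condensin ATPase, had 268, 166 and 199 CPM in p-UPF1 IP, against 159.9, 32.2 and 19.0 CPM in pre-IP (log2 fold change 1.49, SE 0.51). Its groups stood apart only narrowly, because pre-IP replicate 1 was nearly as high as p-UPF1 IP replicate 6. SMC2, the partner of SMC4 in the condensin ring, had 78.2, 66.3 and 55.9 CPM in p-UPF1 IP, against 65.3, 7.16 and 20.7 CPM in pre-IP (0.94, SE 0.47). Pre-IP replicate 1 lay inside the p-UPF1 IP range, and SMC2 did not pass the threshold. The other subunits NCAPG and NCAPH had log2 fold changes of 0.44 and 0.86 and did not pass either. The microRNA genes MIR15B and MIR16-2 lie inside SMC4 and had 62 and 42 counts in all.

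**Figure D4:**
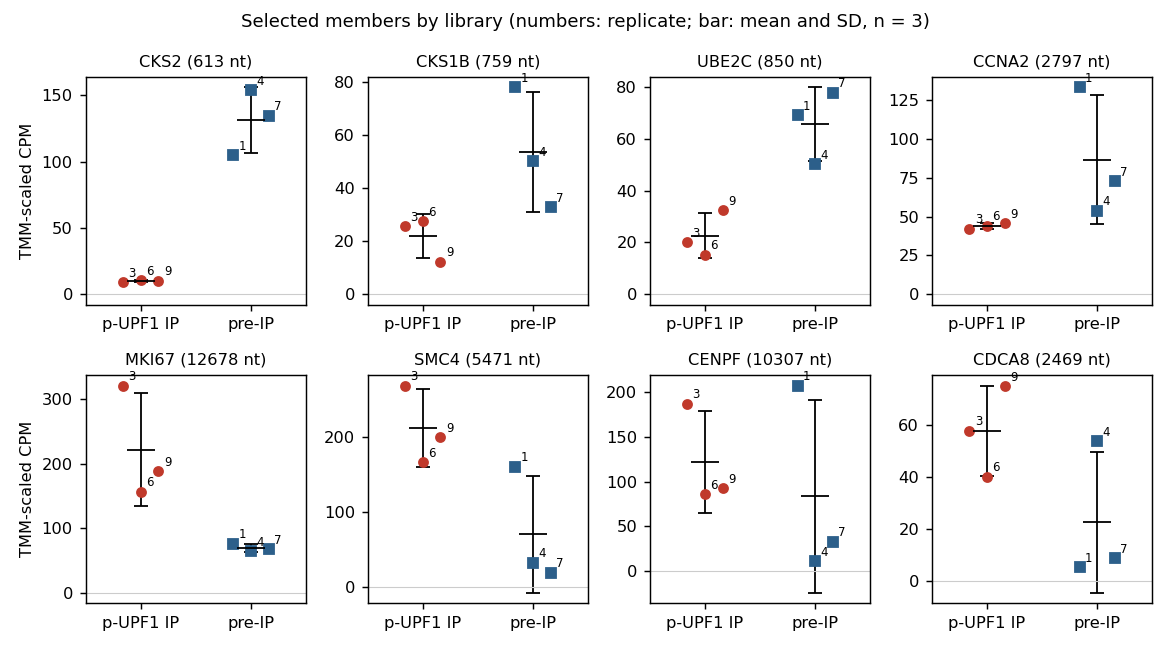
TMM-scaled CPM (y) of 8 mRNAs in p-UPF1 IP (circles) and pre-IP (squares), with the replicate number beside each point and the mean and SD (n = 3) as bars. CKS2 and MKI67 separate clearly in opposite directions, while pre-IP replicate 1 lies high for SMC4 and CENPF and pre-IP replicate 4 lies high for CDCA8.

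Of the centromere and kinetochore genes, 0 of 3 were called. CENPF, a very large kinetochore protein, had 187, 85.9 and 92.8 CPM in p-UPF1 IP, against 207, 10.7 and 32.8 CPM in pre-IP. Its highest value of all was in pre-IP replicate 1, its groups overlapped, and its log2 fold change was 0.43 (SE 0.58). The raw counts in pre-IP were 162, 3 and 19. CENPE, the kinetochore motor, had 177, 46.6 and 86.7 CPM in p-UPF1 IP, against 75.5, 17.9 and 22.5 CPM in pre-IP (1.30, SE 0.51). CENPA, the short mRNA of the centromeric histone H3 variant, had 6.72, 3.64 and 11.2 CPM in p-UPF1 IP, against 28.1, 3.58 and 15.6 CPM in pre-IP (-1.28, SE 0.73), and its groups overlapped.

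In the axis from the anaphase-promoting complex to separase, 1 of 4 was called, UBE2C, which was lower. UBE2C, the ubiquitin-conjugating enzyme of that complex, had 20.2, 15.3 and 32.4 CPM in p-UPF1 IP, against 69.1, 50.1 and 77.8 CPM in pre-IP (log2 fold change -1.58, SE 0.39). The groups did not overlap, and 4 pseudogenes of UBE2C are annotated. PTTG1, securin, which holds separase inactive, had 10.995, 10.6 and 12.9 CPM in p-UPF1 IP, against 26.9, 39.4 and 19.0 CPM in pre-IP. Its groups did not overlap, but its log2 fold change of -1.26 (SE 0.54) did not pass the threshold. ESPL1, separase, and CDC20, the activator of the complex, had log2 fold changes of 0.84 (SE 0.59) and 0.41 (SE 0.38).

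The chromosomal passenger complex, which corrects faulty kinetochore attachments, had 0 of 4 called. CDCA8, borealin, had the highest log2 fold change of all members, 1.71 (SE 0.61), with 57.7, 40.04 and 74.9 CPM in p-UPF1 IP, against 5.12, 53.7 and 8.64 CPM in pre-IP. Its groups overlapped because pre-IP replicate 4 was high, on raw counts of 4, 15 and 5 in pre-IP replicates 1, 4 and 7. Without pre-IP replicate 1 its log2 fold change was 1.12, below that of SMC4. AURKB, the kinase of the complex, had 47.0, 37.5 and 42.5 CPM in p-UPF1 IP, against 44.8, 64.5 and 32.8 CPM in pre-IP (-0.11, SE 0.37). BIRC5, survivin, had 0.64 (SE 0.33) and INCENP, the scaffold, had -0.07 (SE 0.50). AURKA, the spindle pole relative of AURKB, had 28.1, 13.5 and 26.8 CPM in p-UPF1 IP, against 51.2, 17.9 and 10.4 CPM in pre-IP (-0.31, SE 0.55). Without pre-IP replicate 1 its log2 fold change was 0.78. PLK1, the Polo kinase, had a log2 fold change of 0.996 (SE 0.54).

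The spindle checkpoint had 0 of 5 called and a median log2 fold change of -0.37. BUB1 had 52.5, 29.5 and 48.7 CPM in p-UPF1 IP, against 61.4, 25.1 and 105 CPM in pre-IP (-0.61, SE 0.41). BUB1B, the related BUBR1, had 28.4, 15.3 and 21.8 CPM in p-UPF1 IP, against 15.4, 17.9 and 20.7 CPM in pre-IP (0.29, SE 0.52). The groups overlapped for both. BUB3 and MAD2L1 combine a short coding sequence (987 and 618 nt) with a long annotated transcript (7828 and 5468 nt). Their log2 fold changes were -0.37 and -0.34, below the medians of 0.61 and 0.34 for protein-coding genes in their bins of transcript length. Those bins rest on annotated 3' UTRs of 6632 and 4510 nt. Whether these annotated transcripts are the ones expressed in these cells was not tested. TTK, the MPS1 kinase, had -0.45 (SE 0.58). Among the spindle genes TPX2, NUSAP1, HMMR and ASPM, 0 of 4 were called, with log2 fold changes from -0.01 to 0.38. Among the cytokinesis genes ANLN, PRC1 and ECT2, 0 of 3 were called, with log2 fold changes from -0.48 to 0.84.

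Among the 6 pairs of paralogs or partners examined, CKS2 over CKS1B was the pair whose ratio of counts did not overlap between groups. CKS2 was listed as a strong faller in this comparison, so its ratio is a description and supports no claim about the pair. Of all tested genes taken singly, 21.9% did not overlap with p-UPF1 IP above and 17.7% with it below. Ratios of other gene pairs were not taken. The ratio of CCNB1 to CCNB2 ran from 3.47 to 8.77 in p-UPF1 IP and from 1.07 to 11.1 in pre-IP. For AURKA over AURKB it ran from 0.359 to 0.632 in p-UPF1 IP and from 0.278 to 1.14 in pre-IP, and for SMC4 over SMC2 from 2.51 to 3.56 in p-UPF1 IP and from 0.917 to 4.5 in pre-IP. The ratios of BUB1 to BUB1B and of CDC25B to CDC25C overlapped as well. No test was made of any pair.

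The p-UPF1 IP libraries resembled each other more than the pre-IP libraries did. Across the 39 tested members, log2 CPM had Spearman correlations of 0.88 to 0.95 between p-UPF1 IP libraries, 0.40 to 0.63 between pre-IP libraries and 0.29 to 0.68 between the groups. The median SD of log2 CPM within a group was 0.42 in p-UPF1 IP and 0.76 in pre-IP over members, and 0.32 and 0.72 over protein-coding genes. Pre-IP replicate 1 was high for several long mRNAs. ASPM, a spindle pole protein, had 155, 63.7 and 112 CPM in p-UPF1 IP, against 180.4, 21.5 and 34.6 CPM in pre-IP, as CENPF and SMC4 had.

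The calls other than CKS2 and MKI67 depended on which libraries were used. Without pre-IP replicate 1, 9 members were called higher (beside 9.03% of the genes tested there) and 2 lower (9.06%), and CENPF, ASPM, CENPE, SMC2 and NCAPH joined the higher ones with log2 fold changes of 2.34, 1.92, 2.32, 2.10 and 1.60. SMC4 had 3.13 in that fit. CKS1B and CCNA2 lost their calls (-0.85 and -0.54). Without pre-IP replicate 4, 3 members were higher (8.53%) and 3 lower (8.93%). CDCA8 and ESPL1 joined the higher ones (3.13 and 1.73), while CKS1B (-1.30), TOP2A (0.81), SMC4 (1.24) and NCAPD2 (1.04) lost their calls. Without pre-IP replicate 7, 1 was higher (7.6%) and 4 lower (8.75%). TOP2A (1.16), SMC4 (1.05) and NCAPD2 (1.09) lost theirs. Without p-UPF1 IP replicate 3, 1 was higher (3.3%) and 1 lower (6.25%). CKS1B (-1.42), CCNA2 (-0.99), UBE2C (-1.50), TOP2A (0.81), SMC4 (1.29) and NCAPD2 (0.99) lost theirs, and CENPF turned to -0.0055. Without p-UPF1 IP replicate 6, 3 were higher (3.99%) and 1 lower (7.4%). CKS1B (-1.49), CCNA2 (-1.02), UBE2C (-1.37), TOP2A (1.24) and SMC4 (1.64) lost theirs and CENPE was called higher (1.66). Without p-UPF1 IP replicate 9, 1 was higher (3.62%) and 2 lower (6.91%). CKS1B (-1.01), CCNA2 (-1.03), TOP2A (1.08), SMC4 (1.56) and NCAPD2 (1.10) lost theirs. MKI67 stayed between 1.30 and 1.86. For 9 members, none of them called, the direction changed in at least 1 of these fits: CDK1, AURKA, AURKB, TTK, CENPF, TPX2, NUSAP1, HMMR and INCENP. The difference between long and short members was 0.77 to 1.25 over these fits. The member counts also moved with the method. Without a filter on low counts 7 were higher (7.32% of all genes) and 2 lower (5.66%), with DESeq2 3 higher (10.2%) and 2 lower (11.9%), with the GC trend removed 2 higher (6.21%) and 2 lower (8.36%), and with the libraries blocked by triplet 8 higher (9.67%) and 3 lower (10.9%).

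Other genes of cell division behaved much as the background did. Of 93 listed genes in the table, 85 were tested, 8 were called higher and 7 lower (9.41% and 8.24%, beside 8.81% and 10.9% of all tested genes), and their median log2 fold change was 0.03. Cohesin, the ring that holds sister chromatids together, had 4 of 15 called higher and 0 lower. They were NIPBL and MAU2, which load the ring (2.87, SE 0.45, and 1.87, SE 0.45), the ring subunit STAG1 (1.52, SE 0.38) and the regulator PDS5B (2.01, SE 0.55). The lowest log2 fold change of the group was that of SGOL2, a shugoshin, with -0.72 (SE 0.79). NIPBL is a 10435 nt transcript and had 500, 260 and 166 counts in p-UPF1 IP, against 15, 7 and 3 counts in pre-IP. Of protein-coding genes over 6 kb, where NIPBL, PDS5B and STAG1 lie, 19.6% were called higher. Of those of 4 to 6 kb, where MAU2 lies, 11.2% were.

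Of 27 tested kinetochore genes, KNTC1 was called higher (1.01, SE 0.31), and CENPH (-2.26, SE 0.35), MIS12 (-1.89, SE 0.40) and SKA2 (-0.91, SE 0.31) were called lower. CENPQ had the highest value of that group, 1.11 (SE 0.86), on 9 counts in pre-IP, and was not called. Of 14 tested genes of the anaphase-promoting complex, its subunit CDC23 was called higher (1.10, SE 0.34) and its small subunit ANAPC16 lower (-2.50, SE 0.33). FZR1, an activator of the complex, had 1.93 (SE 0.84) and was not called. ANAPC16 is annotated at 3567 nt, so a low fold change was not restricted to short annotated transcripts. Whether that annotated transcript is the one expressed in these cells was not tested.

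Of 10 genes of mitotic entry, GTSE1 (2.10, SE 0.41) and the transcription factor MYBL2 (1.51, SE 0.32) were called higher, and the kinase MASTL (-1.23, SE 0.39) and its substrate ENSA (-1.48, SE 0.30) were called lower. MASTL and ENSA act together to inhibit PP2A in mitosis, and whether that role bears on these values was not tested. ENSA is annotated at 923 nt, and 44.6% of protein-coding genes of up to 1 kb were called lower. MASTL is annotated at 3080 nt, and 6.66% of those of 2 to 4 kb were. ARPP19, also in this group, had -1.04 (SE 0.40) and was not called. LIN54 had the lowest value, -1.55 (SE 0.70), and was not called. Of 16 tested G1 and S phase regulators, SKP2, an F-box protein, was called lower (-1.45, SE 0.40) and 0 were called higher. CCNE2, cyclin E2, had 2.09 (SE 0.78) and was not called. Of 3 condensin II genes 0 were called, with log2 fold changes from 0.18 (NCAPG2) to 0.71 (NCAPH2).

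Promoters are not read by this assay of RNA fragments, and their sequence is given as a description. The members were chosen as mitotic cell cycle genes. A high share of promoter letters tied to the cell cycle is therefore not independent of that choice. Of 34 members with a promoter in RefSeq (GRCh38.p14, from 250 bases before to 50 after the start), 25 held TTTGAA, the core of the cell cycle homology region (CHR), on either strand, which is 73.5% beside 12.4% of 22199 protein-coding promoters. The letters CCAAT, on either strand, were in 26 (76.5%), beside 34.7% of all. Both were in 20 (58.8%), beside 4.97% of all. CDC25B, CDC25C and CENPE held neither in this window, and other start sites of these genes were not searched. Only the first listed promoter of each member was used, while the 22199 promoters were not reduced in that way. A match to these letters is a description of the window, not a measured binding site.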

How the data were processed

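RNA fragments of HEK293T cells were sequenced from 3 p-UPF1 IP and 3 pre-IP libraries. The authors deposited raw read counts per gene symbol, with no scaling. The hg19 build, Subread 1.5.0p3, STAR 2.5.2b and cutadapt 1.15 are named, without role or order, per the submitters' processing notes. Annotation, strand setting and multi-mapping treatment were not given in the sources used here. Libraries held 600244 to 2057647 counts, and a gene with few counts has a wide error. Of the 26364 genes, 8070 passed filterByExpr of edgeR 4.0.16 (R 4.3.3, minimum count 10) and were tested with TMM scaling and the quasi-likelihood F-test, adjusted by Benjamini-Hochberg over all of them. Each standard error was taken as the absolute log2 fold change over the root of its F statistic. On counts simulated with these library sizes (7138 genes tested) the test called 12.7% of genes changed 2-fold, 83.1% of those changed 4-fold, and 96.3% of those changed 8-fold. Of 114 simulated calls, 5 fell on unchanged genes. The simulation had no TMM shift and gave both groups the same dispersion. Changed genes that failed the filter were not counted. That setting is simpler than the measured counts, so these percents need not hold for them. Transcript length, coding length, exons, GC content and overlapping genes came from GENCODE 29 (GRCh38, matched by symbol, the transcript with the longest coding sequence), so no hg19 coordinates are given. Where transcripts tied in coding length, the longest of them was taken. Length and GC trends were lowess fits (span 0.5) over protein-coding genes, entered as offsets.

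Named in full were CKS1B, CKS2, CENPF, CDK1, CCNB1, the 5 highest and 5 lowest members, the 3 most counted, 6 pairs and, of the other list, the highest and lowest gene per role. ASPM, CCNA2, NCAPD2 and the other called genes of that list were added after their values were seen. Members, lists and rules were chosen with earlier results of these data known. Alternatives were RLE, upper-quartile and library-total scaling, other filters, DESeq2 1.42.0, limma-voom (limma 3.58.1), small structured RNA genes left out, trends removed, a replicate block and each library left out.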

Additional observations from a re-analysis of the deposited data

How the results depend on the processing

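The call of CKS2 held in all 17 alternatives, with log2 fold changes from -3.86 to -2.16, and that of MKI67 in all but the fit with the length trend removed. CKS2 was listed as a strong faller in these same libraries, so its kept call is a description and not separate support. With library totals alone 27 members were called higher and 1 lower, with a median of 1.61, and the log2 fold changes of CKS1B (0.18), CCNA2 (0.49) and UBE2C (0.0050) turned positive. On that scale 50 of the other cell division genes were called higher and 1 lower, with a median of 1.56. Without a filter on low counts 7 members were higher and 2 lower. DESeq2 called 2 lower. With the length trend removed 0 were higher and 1 lower, the rank correlation with length was 0.22 and CKS1B was at 0.012. These follow from taking the trend out. With the GC trend removed 2 were higher and 2 lower. With a minimum count of 30 the rank correlation was 0.52. Leaving out 1 library at a time gave 1 to 9 members higher and 1 to 4 lower. The cause of these moves, apart from the length trend, was not tested.

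The groups share no replicate number. Treating label triplets as a replicate block (1 with 3, 4 with 6, 7 with 9) gave 8 members higher and 3 lower. The deviations of such pairs correlated at 0.09 to 0.17. Other pairings are not given beside them, so these values cannot decide whether the numbers pair the libraries. Low depth in pre-IP replicate 4, where 20 members had fewer than 10 counts, limits every fold change of a thinly counted member.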
